A study of Mus musculus with 8 samples.

Results

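The mouse mitochondrial chromosome carries 37 genes, and all 37 were in the deposited table of 55487 gene identifiers: 13 protein-coding genes, the 12S and 16S rRNA genes mt-Rnr1 and mt-Rnr2, and 22 tRNA genes. The members were taken by position, as every gene on chromosome MT of GRCm38, a rule that uses no measured value. RNA came from skeletal muscle of 8 male C57BL/6J mice aged 10 weeks, of 1 group only (n = 8). Both hindlimbs were immobilized by casting for 8 days, and K14Q MOTS-c, a form of the peptide with lysine 14 replaced by glutamine, was injected intraperitoneally at 15 mg/kg/day, divided over 2 injections per day. No untreated, non-immobilized or WT MOTS-c mice were analysed here, so no effect of the peptide or of the cast can be read from these values. The sample labels name vastus lateralis muscle, whereas the series description and the methods name gastrocnemius muscle.

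Mitochondrial DNA is transcribed from both strands into long precursor RNAs that span many genes. The precursors are cut mainly at the tRNAs that lie between the other genes, which releases the rRNAs and mRNAs, and most of the mRNAs then receive a short poly(A) tail. The 13 proteins are core subunits of respiratory complexes I, III, IV and V, and the rRNAs and tRNAs serve the mitochondrial ribosome that makes these proteins. MOTS-c is encoded by a short reading frame within the 12S rRNA gene mt-Rnr1. Libraries here were made from poly(A)-captured RNA, so the levels below are levels of captured RNA. In bulk muscle, fewer cells of a type and less RNA per cell cannot be told apart.

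The capitals in these stretches of GRCm38 (from GENCODE release M21 transcripts, written 5′ to 3′ on the plus strand) mark bases that belong to 2 neighbouring genes.
mt-Atp8 into mt-Atp6, chrMT:7907-7989: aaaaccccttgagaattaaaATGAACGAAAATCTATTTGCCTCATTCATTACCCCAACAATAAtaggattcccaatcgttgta
mt-Nd4l into mt-Nd4, chrMT:10147-10193: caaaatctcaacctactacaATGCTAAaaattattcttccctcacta
end of mt-Nd5 into mt-Nd6, chrMT:13532-13565: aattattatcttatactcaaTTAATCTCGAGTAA
The first pair shares 43 bases and the second 7, both on the plus strand, so a read within them cannot be given to 1 of the genes. The last pair shares 14 bases on opposite strands, since mt-Nd6 is the only protein-coding gene on the minus strand.

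The recovered counts came to between 23985356 and 33012497 per library, of which 3000015 to 5458778 lay on chromosome MT. The mitochondrial share of all counts was 15.6% ± 2.09 (SD, n = 8). It was 12.5% in mouse 4 at the lowest, 15.4% at the median and 18.6% in mouse 7 at the highest. Mice 3 and 4 held the lowest shares and mice 2 and 7 the highest. Protein-coding genes took 98.3% ± 0.181 of the mitochondrial counts, the rRNA genes 1.55% ± 0.167 and the tRNA genes 0.132% ± 0.0182 (SD, n = 8). A minimum of 10 counts in each of the 8 libraries was passed by 26 of the 37, and the 11 that missed it were all tRNA genes. The labelled tissue carried its markers, since the summed level of 8 muscle identity genes lay between 1910477 and 3841617 normalized counts per mouse and all 8 passed that minimum. Fast-fibre genes summed to between 2015665 and 4050632 normalized counts and slow-fibre genes to between 14852 and 27789.

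**Figure D1:**
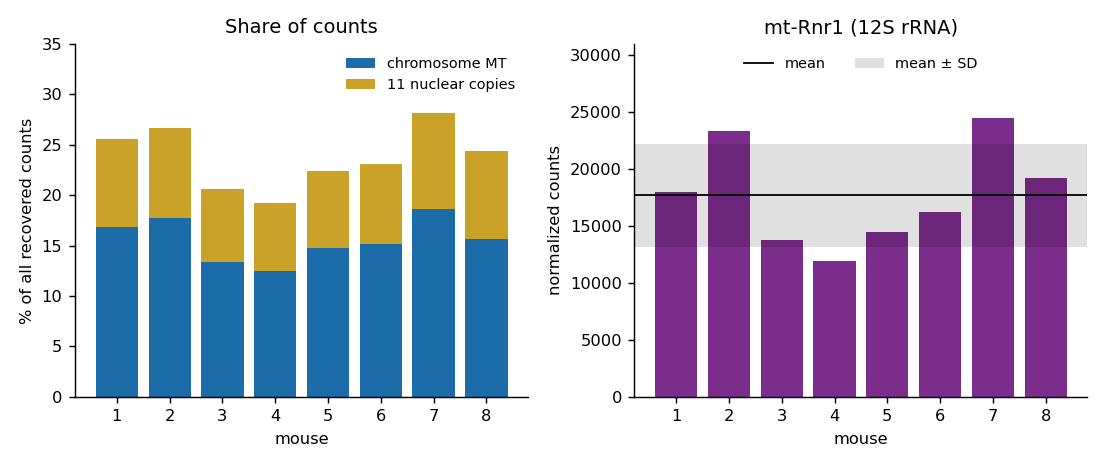
Share of all recovered counts in each of the 8 mice (left, %; chromosome MT below, the 11 annotated nuclear copies of mitochondrial genes stacked above) and the level of mt-Rnr1 in normalized counts (right; line, mean; band, mean ± SD, n = 8). Both the mitochondrial share and mt-Rnr1 were lowest in mouse 4 and highest in mouse 7.

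The nuclear genome holds transposed copies of mitochondrial DNA, and these copies set how the mitochondrial counts can be read. A search of the annotated transcripts found 11 pseudogenes in the table that match a mitochondrial protein-coding gene at 95% identity or more. Of these, 7 lie side by side on chromosome 1 (GRCm38) and are over 99% identical, 5 of them at 100% over their aligned length. Gm10925, which copies the first 678 of the 681 bases of mt-Atp6 at chr1:24613974-24614651, had 651139 ± 128781 normalized counts where mt-Atp6 had 651154 ± 128789 (SD, n = 8). In every library the recovered counts of the pair differed by only 3 to 40 reads. Gm28437 held 100.003% ± 0.00189 of the counts of mt-Co3, Gm28661 held 100.003% ± 0.00302 of those of mt-Co2, and Gm28438 held 99.9% ± 0.0431 of those of mt-Nd3. Gm10222, an identical copy of most of mt-Nd4l, held 97.4% ± 0.265 of its counts. The table thus holds nearly the same count under both names. How reads that match both places were counted is not given in the sources used here. For these 7 pairs, transcripts of the mitochondrial gene and of its nuclear copy largely cannot be told apart over the bases they share.

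Shorter copies held part of the counts of their gene. Gm28439 copies the first 876 bases of mt-Nd4, which is 63.6% of that gene, and held 61.5% ± 2.93 of its counts. Gm29216 copies the last 483 bases of mt-Co1, which is 31.3% of that gene, and held 40.9% ± 1.89 of its counts. The remaining 4 copies are 95% to 98% identical and held smaller parts of the counts of their gene. Gm13341 on chromosome 2 held 23.8% ± 1.52 of the counts of mt-Co2, Gm13340 held 13.6% ± 1.88 of those of mt-Co1, and Gm13339 held 11.1% ± 0.809 of those of mt-Nd2. Gm4076 on chromosome 13, a copy of part of mt-Nd5, held 0.630% ± 0.0823. No copy over this limit was found for mt-Rnr1 or mt-Rnr2 or, at over 99% identity, for 6 of the protein-coding genes. The 11 copies together took 8.18% ± 0.975 of all counts (SD, n = 8). Mitochondrial genes and copies together thus took 19.2% in mouse 4 to 28.2% in mouse 7. A read counted under both names enters this sum under each. With the copies left out of the library total, the mitochondrial share was 17.0% ± 2.45.

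**Figure D2:**
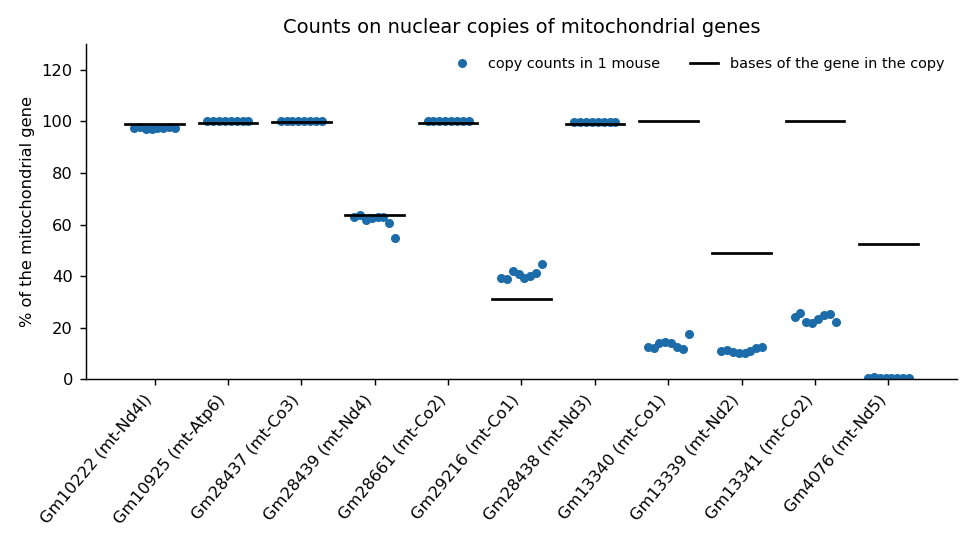
Counts on each nuclear copy as a percentage of the counts of the mitochondrial gene in brackets (points, 8 mice), with the percentage of the gene's bases that the copy holds (lines). For 5 near-identical copies points and lines lie at or near 100%, whereas the copies on chromosomes 2 and 13, at the right, lie far under their lines.

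mt-Rnr1, the 12S rRNA of the small mitochondrial ribosomal subunit, lies at chrMT:70-1024 on the plus strand as a single exon between the tRNA genes mt-Tf and mt-Tv. Its level was 17692 ± 4514 normalized counts (SD, n = 8), which placed it at rank 136 of all genes. The values ranged from 11906 in mouse 4 through a median of 17118 to 24519 in mouse 7. The 2 highest mice, 7 and 2, stood at 24519 and 23389, above the third at 19231 in mouse 8. As a part of the mitochondrial counts mt-Rnr1 was steadier, between 0.323% in mouse 5 and 0.420% in mouse 2. mt-Rnr2, the 16S rRNA of the large subunit at chrMT:1094-2675, was found at 54815 ± 14185 normalized counts, from 36164 in mouse 4 through 53362 to 74518 in mouse 7. Per kb of gene, mt-Rnr1 stood at 18525 ± 4727 and mt-Rnr2 at 34649 ± 8967 normalized counts. Since the rRNAs carry only very short tails and the libraries were made by poly(A) capture, these 2 values are not the rRNA content of the cell.

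Of the complex IV subunits, mt-Co1 was the most abundant, and it led all 13 protein-coding genes in counts. mt-Co1, the catalytic subunit of cytochrome c oxidase, had 1025493 ± 199377 normalized counts, second among all genes after the fast myosin Myh4. Its values ran from 752102 in mouse 4 through 1042160.2 to 1301333 in mouse 7. mt-Co2 and mt-Co3, the other two mitochondrial subunits of that enzyme, stood at 315531 ± 67669 and 331205 ± 64287 normalized counts. These 3 genes took 36.0% ± 1.80 of the mitochondrial counts (SD, n = 8).

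The 7 complex I subunits took nearly the same share, 36.5% ± 1.96, but differed widely from each other. mt-Nd4 led them with 626989 ± 142110.4 normalized counts, with values from 446799 in mouse 3 through 599694 to 807021 in mouse 7. mt-Nd1 followed with 347970 ± 83917, mt-Nd5 with 327249.96 ± 97769 and mt-Nd2 with 307128 ± 82311. The small genes mt-Nd4l and mt-Nd3 had 62420.4 ± 14558 and 29092 ± 5131. mt-Nd6 was the lowest of the 13, with 9198 ± 2761 normalized counts, and ranged from 5190 in mouse 4 through 9041 to 14708 in mouse 7.

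mt-Cytb, the only mitochondrial subunit of complex III, had 466916 ± 100588 normalized counts and took 10.0% ± 0.259 of the mitochondrial counts. The ATP synthase subunits mt-Atp6 and mt-Atp8, which belong to complex V and overlap in the first stretch shown above, had 651154 ± 128789 and 80256 ± 17445. The values of mt-Atp6 ran from 464046 in mouse 4 through 640749 to 819219 in mouse 7.

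Gene length changes the order, so levels were also divided by length. Per kb of gene, mt-Atp6 led with 956173 ± 189118 normalized counts, ahead of mt-Co1 with 663749 ± 129046 in 8 of 8 mice. Then mt-Co2, mt-Nd4, mt-Co3, mt-Cytb, mt-Atp8 and mt-Nd1 followed within a narrow range, from 461303 ± 98931 down to 363605 ± 87687. Neighbours by rank among these 6 kept their order in only 4 to 6 of 8 mice and were not resolved from each other. mt-Nd2, mt-Nd4l, mt-Nd5, mt-Nd3, mt-Rnr2 and mt-Rnr1 then each stood under the one before in 8 of 8 mice. mt-Rnr1 lay above mt-Nd6, at 17722 ± 5319 per kb, in 5 of 8 mice, with a mean log2 ratio of 0.08 ± 0.24 (SD), and these last 2 were not resolved either.

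**Figure D3:**
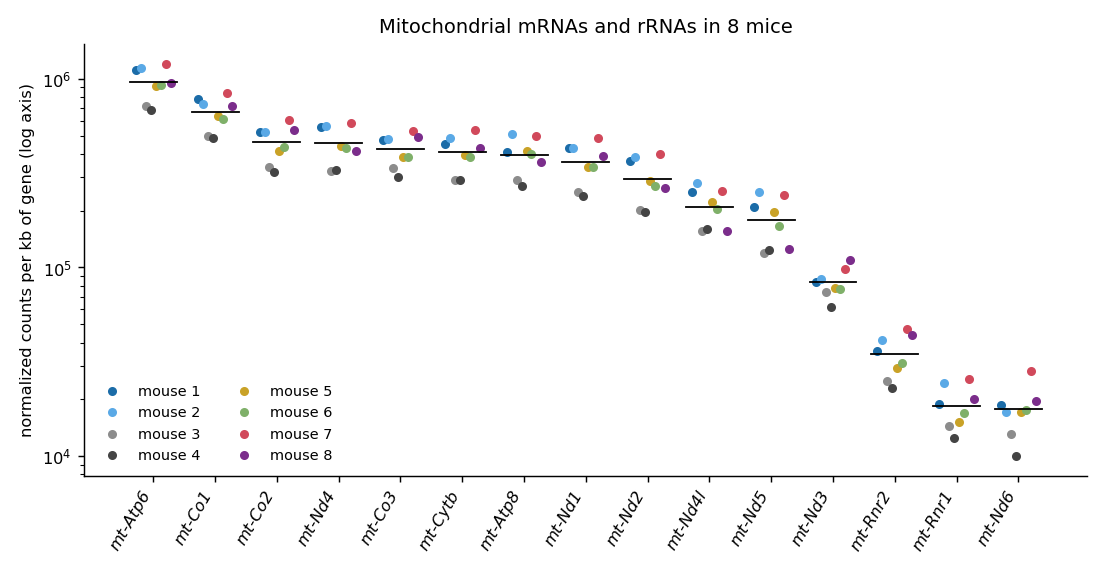
Normalized counts per kb of gene (log axis) of the 13 mRNAs and 2 rRNAs, sorted by their mean (black line); each point is 1 of the 8 mice. mt-Atp6 stands highest, mt-Rnr1 and mt-Nd6 lowest, and mice 3 and 4 lie at the bottom for most genes.

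Pairs of genes that are neighbours or share a precursor were then compared within each mouse. In the 9 pairs the log2 ratio of levels per kb had the same sign in 8 of 8 mice, and each pair reached the smallest p that the exact two-sided sign-flip permutation test allows with 8 mice, 0.0078, also after Benjamini-Hochberg adjustment over the 9 pairs. mt-Rnr1 was lower than mt-Rnr2, with a mean log2 ratio of -0.90 ± 0.11 (SD) and values between -1.12 in mouse 8 and -0.76 in mouse 2. Against the next mRNA downstream, mt-Nd1, the log2 ratio of mt-Rnr1 was -4.30 ± 0.15. With poly(A) capture and the very short tails of the rRNAs, a low ratio was likely in advance, so the test of this pair adds little. mt-Nd6 and mt-Nd5, encoded on opposite strands over the 14 shared bases, differed by -3.34 ± 0.37. The values of that pair spread from -3.87 in mouse 2 to -2.68 in mouse 8, the widest spread of the 9.

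Genes that share 1 mRNA also differed. mt-Atp8 stood below mt-Atp6 with a log2 ratio of -1.29 ± 0.11, and mt-Nd4l below mt-Nd4 with -1.12 ± 0.13, although each pair is carried on a single bicistronic mRNA. Counts nearly equal to those of mt-Atp6 and mt-Nd4l, and to part of those of mt-Nd4, also stand under nuclear copies. How reads over the shared bases were counted is not given in the sources used here, and its part in these ratios was not tested. mt-Nd5 was below mt-Cytb with -1.21 ± 0.25, mt-Co1 above mt-Co2 with 0.53 ± 0.06, and mt-Nd1 above mt-Nd2 with 0.30 ± 0.12. mt-Co2 exceeded mt-Co3 by only 0.12 ± 0.05, and this sign turned to -0.076 when the counts were not divided by length.

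The tRNA genes are 59 to 75 bases long and split into a few high and many low ones. These plus-strand tRNAs, from the same annotation, are shown because the first 5 held nearly all tRNA counts and the last 2, which flank mt-Rnr1, held almost none.
mt-Tg, chrMT:9391-9458: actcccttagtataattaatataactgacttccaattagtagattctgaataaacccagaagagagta
mt-Td, chrMT:6942-7011: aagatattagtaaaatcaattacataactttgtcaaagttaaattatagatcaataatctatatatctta
mt-Tl1, chrMT:2676-2750: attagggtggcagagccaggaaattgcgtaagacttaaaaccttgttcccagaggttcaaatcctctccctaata
mt-Ti, chrMT:3706-3774: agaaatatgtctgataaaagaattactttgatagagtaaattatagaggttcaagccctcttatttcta
mt-Tw, chrMT:4950-5016: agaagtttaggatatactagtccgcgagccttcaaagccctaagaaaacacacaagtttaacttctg
mt-Tv, chrMT:1025-1093: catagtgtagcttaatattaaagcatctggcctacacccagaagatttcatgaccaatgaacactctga
mt-Tf, chrMT:1-68: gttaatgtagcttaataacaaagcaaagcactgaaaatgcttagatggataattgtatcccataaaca

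mt-Tg, the glycine tRNA between mt-Co3 and mt-Nd3, had 1654 ± 603 normalized counts, from 875 in mouse 4 through 1661 to 2457 in mouse 7. mt-Td, the aspartate tRNA before mt-Co2, had 1172 ± 447, mt-Tl1, a leucine tRNA between mt-Rnr2 and mt-Nd1, had 1098 ± 397, mt-Ti, the isoleucine tRNA after mt-Nd1, had 1068 ± 324 and mt-Tw, the tryptophan tRNA after mt-Nd2, had 599 ± 159. These 5 tRNAs together held 0.117% ± 0.0178 of the mitochondrial counts, out of the 0.132% of all 22. The only minus-strand tRNA of a similar order was mt-Ts1, a serine tRNA, with 349 ± 92.7. mt-Tm and mt-Te had 90.3 ± 28.3 and 90.7 ± 32.7, and the other 14 had means of at most 37.5. mt-Tv, the valine tRNA that lies between the rRNA genes, had 4.44 ± 2.34. mt-Tf, the phenylalanine tRNA at the start of the chromosome, was at 0 in 2 libraries and had at most 4 counts in the others. mt-Ts2 was at 0 in 3 libraries and had at most 3 counts. A count of 4 or fewer has a wide counting error, and the order of these low tRNAs was not resolved. Whether the counts came from free tRNAs or from tRNA bases still joined to a longer RNA was not tested.

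**Figure D4:**
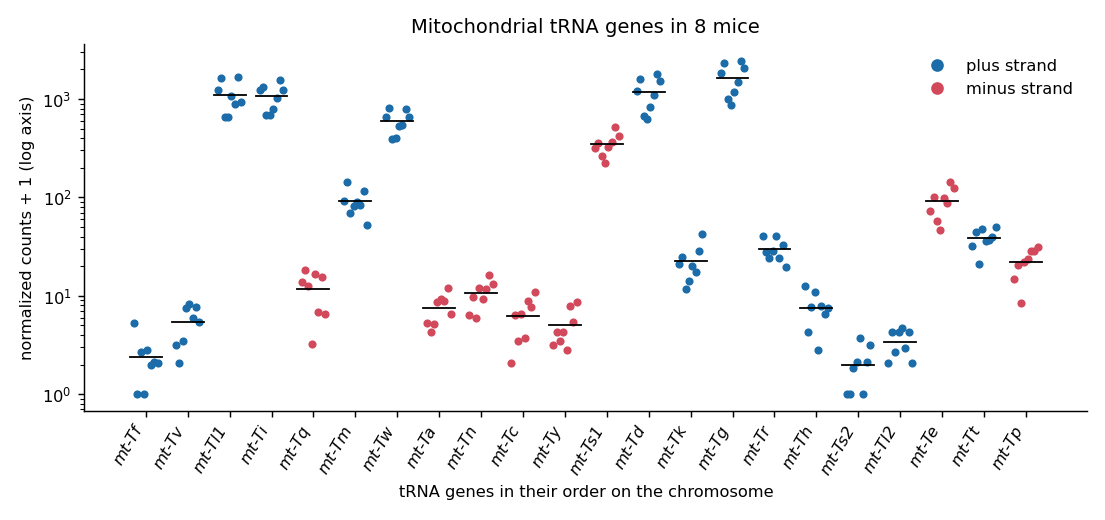
Normalized counts + 1 (log axis) of the 22 mitochondrial tRNA genes in their order on the chromosome; each point is 1 of 8 mice, the black line is the mean, blue is the plus strand and red the minus strand. mt-Tl1, mt-Ti, mt-Tw, mt-Td and mt-Tg stand at 392 normalized counts or more in every mouse, and the other plus-strand tRNAs stay under 144.

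The mice ranked much alike for most of the mitochondrial genes. Among the 15 mRNA and rRNA genes, mouse 7 was highest for 11 and mouse 4 was lowest for 12, and mice 3 and 4 were the 2 lowest for 14. The exception was mt-Nd4l, for which mouse 8 was lowest. The highest mouse stood 1.73-fold over the lowest for mt-Co1 and 2.83-fold for mt-Nd6, the ends of the range. The coefficient of variation over the 8 mice was between 17.6% for mt-Nd3 and 30.0% for mt-Nd6, with a median of 22.7% over the 15 genes. Over all 15135 genes that passed the minimum of 10 counts, the median was 15.6%. This order depended on the scaling: with library totals in place of the deposited normalization, the median was 15.1% for the 15 genes and 18.2% for all genes. The edgeR biological coefficient of variation, which takes out counting error, had a median of 21.1% over the 15 genes and 15.5% over all genes.

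The make-up of the mitochondrial counts varied less, with 1 mouse apart. As a share of mitochondrial counts, mouse 8 stood at one end of the range for 11 of the 15 genes. It had the highest share of mt-Rnr2, mt-Nd1, mt-Co1, mt-Co2, mt-Co3, mt-Nd3 and mt-Cytb and the lowest of mt-Nd2, mt-Nd4l, mt-Nd4 and mt-Nd5. The log2 share of mt-Nd5 in mouse 8 lay 0.50 under the mean over mice, where mt-Nd5 made up 4.88% of the mitochondrial counts against 8.24% in mouse 2. The log2 share of mt-Nd4l lay 0.44 under its mean, that of mt-Nd3 0.36 above and that of mt-Rnr2 0.34 above.

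As a percentage of the counts of their gene, 6 of the 11 nuclear copies were at an end of their range in mouse 8, and the 3 that copy mt-Nd4 or mt-Co1 are described here. Gm28439, the copy of the first 876 bases of mt-Nd4, held 54.7% of the counts of that gene in mouse 8 and 60.5% to 63.8% in the other 7 mice. Gm29216, the copy of the last 483 bases of mt-Co1, held 44.8% of the counts of mt-Co1 in mouse 8 and 38.9% to 41.9% in the other 7. Gm13340, which copies the whole of mt-Co1 and so marks no position in it, held 17.4% in mouse 8 and 11.7% to 14.5% in the other 7. Since it is not given how reads that match both places were counted, these percentages do not show where along a gene the reads fell. Other measures also put mouse 8 apart: it had the highest summed level of the nuclear subunits of complexes I, III, IV and V and the lowest of the adipocyte, fibroblast, endothelial and blood markers. Of 9 listed RNAs without a long poly(A) tail, 7 were in the table and 3 passed the minimum. The summed level of the 7 was also highest in mouse 8, at 436 normalized counts against a median of 258. Rn7sk of that list was highest in mouse 1. The part of the copies, of tissue make-up and of RNA capture in the values of mouse 8 was not tested.

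**Figure D5:**
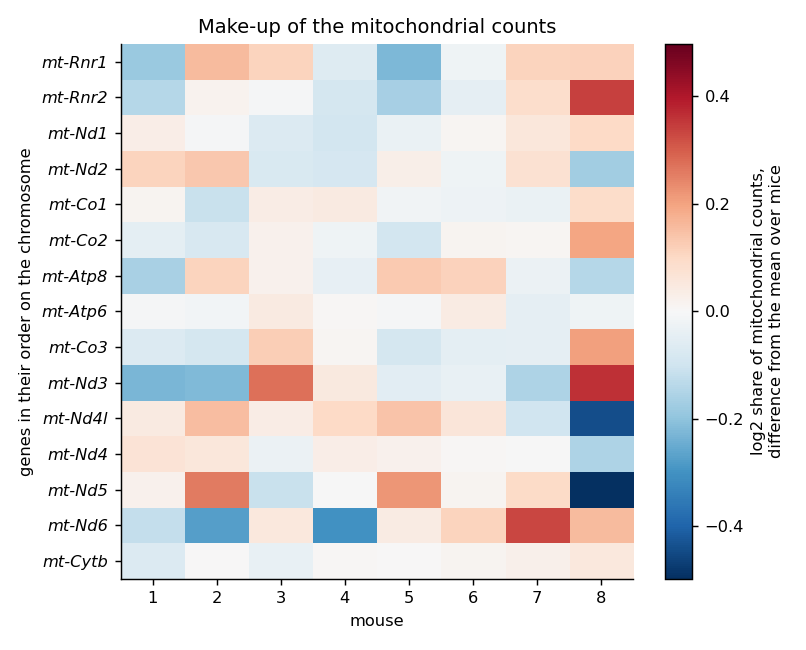
Share of mitochondrial counts of each mRNA and rRNA gene (rows, in chromosome order) in each mouse (columns), as the log2 difference from that gene's mean over the 8 mice (red above, blue below). Mouse 8 shows the strongest colours, with mt-Nd5 at -0.50, mt-Nd4l at -0.44, mt-Nd3 at 0.36 and mt-Rnr2 at 0.34.

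mt-Rnr1, the gene that carries the MOTS-c reading frame, was compared across the 8 mice with every other gene that passed the minimum. With the Pearson correlation of log2(normalized count + 1), an exact permutation test over all 40320 pairings of mice and Benjamini-Hochberg adjustment over 15134 genes, 0 of the 14 other mRNA and rRNA genes passed, and 0% of all genes passed. With 8 mice the exact p has a floor that is too high for a single gene to pass this adjustment. At an unadjusted two-sided p under 0.05, 12 of the 14 were positively correlated, where 6.73% of all genes were. All 14 correlations were positive, with a median r of 0.88, whereas the median over all genes was -0.04. These genes share libraries, all but mt-Nd6 lie on the strand of mt-Rnr1, and 7 of them have near-identical nuclear copies, so the 14 are not independent of each other.

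By Pearson's r over all 8 mice mt-Rnr2 followed mt-Rnr1 most closely of the 14, with r = 0.96 (rho = 0.98; exact permutation p = 0.00057 and 0.0004; adjusted exact permutation p = 0.195 and 0.176), and r was 0.90 without mice 4 and 7, the 2 farthest from the median of mt-Rnr1. mt-Co3 and mt-Co2 came next with r = 0.94 each. By rank mt-Co2, mt-Co3 and mt-Atp6 had the same rho as mt-Rnr2, and without mouse 1 or mouse 5 another gene had a higher r, so the order of the closest genes was not resolved. The loosest were mt-Nd4l with r = 0.68 and mt-Nd5 with r = 0.72, both among the genes whose share of the mitochondrial counts was lowest in mouse 8. Without mouse 8 these were 0.87 and 0.88, and 14 of 14 genes reached an unadjusted exact p under 0.05. As shares of the mitochondrial counts, where differences in the mitochondrial total are divided out, only mt-Rnr2 of the 14 reached an unadjusted exact p under 0.05, with r = 0.73. On that scale 6 of the 14 correlations were negative, down to -0.45 for mt-Nd4. Shares of 1 total cannot all rise together, so negative values there are partly set by the measure.

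Of the 11 tRNA genes with enough counts, 8 had an unadjusted exact p under 0.05 with mt-Rnr1, all positive, where 6.73% of all genes were, and 0 passed after adjustment over all genes. mt-Tg with r = 0.98 and mt-Td with r = 0.97 placed the 8 mice in exactly the order of mt-Rnr1 (rho = 1). At the other end, mt-Tr, the arginine tRNA, had r = 0.01 and mt-Tt, the threonine tRNA, r = 0.28.

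The nuclear genome encodes the remaining subunits of the same complexes, and each mitochondrial subunit had a higher mean level per kb than every listed nuclear subunit of its complex. With all annotated exons of a gene merged as its length, the highest nuclear values per kb were 4362 normalized counts for Uqcrb in complex III, 9441 for Cox6a2, a muscle subunit, in complex IV and 8309 for Atp5a1 in complex V. The lowest mitochondrial values in these 3 complexes were 408143 for mt-Cytb, 422455 for mt-Co3 and 393411 for mt-Atp8. The ratio of the mitochondrial to the nuclear median per kb was 174 ± 50.2 in complex I, 208 ± 48.0 in complex III, 200 ± 49.5 in complex IV and 465 ± 142 in complex V (SD, n = 8). With the shortest annotated full protein-coding transcript as the length of a nuclear gene, the ratios were 98.5 ± 28.5, 116 ± 30.0, 89.5 ± 21.1 and 124 ± 29.3, and each mitochondrial subunit again stood above the listed nuclear ones.

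The summed levels of the nuclear subunits were highest in mouse 8 for each of the 4 complexes, whereas they were lowest in mouse 4 for complex IV and in mouse 2 for the others. The summed level of the 36 nuclear complex I genes was lowest in mouse 2, at 67474 normalized counts, and highest in mouse 8, at 94693, while mouse 2 was among the highest for the mitochondrial genes. Of these 36 genes 3 had an unadjusted exact p under 0.05 with mt-Rnr1, as had 2 of 14 in complex IV and 0 of 9 and 0 of 15 in complexes III and V, all positive, where 6.73% of all genes were positive at that level. The score of the nuclear respiratory chain genes (the mean of their z-scores over mice) correlated with mt-Rnr1 at r = 0.19 (rho = 0.38), with mt-Co1 at r = 0.30 and with mt-Nd6 at r = 0.47. Together with library total and scores of mitochondrial DNA transcription and replication, slow fibres and fibroblasts this made 15 relations, of which 0 passed in exact permutation tests with Benjamini-Hochberg adjustment over the 15 (lowest adjusted exact p = 0.778). By rank, mt-Nd6 and the nuclear respiratory chain score gave rho = 0.74 with an unadjusted exact p of 0.0458 and an adjusted exact p of 0.688.

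The listed nuclear genes that act on mitochondrial DNA and RNA were all less abundant than the mitochondrial mRNAs. The 16 transcription and replication genes had coefficients of variation between 1.47% and 21.6%. Tfb2m, a transcription factor of the mitochondrial promoters, was the most abundant of them, at 1734 ± 25.6 normalized counts, and varied least of its list. That SD is no larger than counting error alone would give at this level, so its low variation was not resolved. Tfam, which packages mitochondrial DNA and starts its transcription, had 903 ± 81.8 normalized counts, lowest in mouse 4 and highest in mouse 8, where mt-Rnr1 was lowest in mouse 4 and highest in mouse 7. Its correlation with mt-Rnr1 was r = 0.86 (exact permutation p = 0.0083, adjusted over all genes 0.257). The list as a whole had a median r of -0.31, with 6 of 16 genes positive, and its score had r = -0.43 with mt-Rnr1. At an unadjusted exact p under 0.05, 2 of its genes were positively and 1 negatively correlated with mt-Rnr1, where 6.73% of all genes were positive and 6.74% negative. Of 18 genes of mitochondrial RNA processing and stability, led by the RNA granule protein Grsf1 at 3024 ± 300.0 and the FAST kinase Fastk at 2427 ± 362, 0 were positive and 1 was negative at that level. Of 12 genes that assemble the small ribosomal subunit on the 12S rRNA, led by the subunit proteins Mrps7 at 1098 ± 119 and Mrps18b at 945 ± 104, 1 was positive and 0 negative.

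Markers of fibre type and of other cells were also set against mt-Rnr1 across the mice, and their part in its variation was not tested. At an unadjusted exact p under 0.05, 5 of 9 fast-fibre genes and 2 of 5 Schwann cell genes were positively correlated, where 6.73% of all genes were, and 1 of 7 macrophage genes was negatively correlated, where 6.74% of all genes were. In the lists of 8 slow-fibre, 8 fibroblast, 5 endothelial and 5 blood genes, and of the 4 adipocyte genes that passed the minimum count, 0 reached that level. The fast-fibre genes Myh4 and Actn3 had r = 0.77 and 0.79. Pmp22, a myelin gene of Schwann cells, had r = 0.79 and was highest in mouse 7, at 1647 normalized counts against a median of 913. The 1 macrophage gene was Cd68, with r = -0.79, and the median r of its list was -0.50. Summed marker levels ranged from 2220.2 to 5140 normalized counts for the 5 Schwann cell genes, from 2234 to 5580 for the 7 macrophage genes and from 10294 to 19186 for the 8 fibroblast genes. Adjustment over all genes left 0 of these correlations.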

How the data were processed

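Poly(A)-captured RNA of 8 mice, 1 library each, was sequenced. The authors mapped reads to GRCm38.p6 with STAR, assigned them to genes with summarizeOverlaps and scaled them with DESeq2. The annotation release, strand setting, counting mode and handling of multi-mapping reads are not given in the sources used here. The deposited table, assumed beforehand to hold raw counts, holds a signal: counts divided by 1 size factor per library. Whole reads were recovered for 100% of values within a tolerance of 0.01 read, and served for depth, minimum counts and other scalings. Totals of 23985356 to 33012497 counts leave counting error important near 10 counts and the reads carry no molecular identifiers, so p-values and SDs describe the spread between these 8 libraries. One size factor per library was taken as deposited, and mitochondrial counts are part of the totals it scales.

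Of 55487 identifiers, 55227 were found in GENCODE release M21 (GRCm38), which gave symbols, positions and lengths. Nuclear copies were sought with BLAST 2.17.0 among its transcripts (at least 95% identity over at least 200 bases and 95% of the copy). With 1 group, no condition was compared. Levels, pairs (exact sign-flip test), correlations (exact permutation of pairings) and edgeR 4.0.16 dispersions were computed on log2(normalized count + 1) or recovered counts, for genes that reached 10 counts in each library. DESeq2 1.42.0 dispersions, other scalings (library totals, TMM, counts off chromosome MT), a pseudocount of 5, Spearman correlation, no length division and leaving out each mouse were alternatives. The correlations with mt-Rnr1 had been planned with adjustment over the relations alone and are adjusted over all genes instead. The planned relation to Gm42418 was not analysed here. All mitochondrial genes could be named, and some low tRNA genes are covered only as a group. Of each other list the 2 most abundant genes and those with the highest and lowest coefficient of variation could be named. Cox6a2, Uqcrb and Gm10222 were named after their values were seen. The members follow a rule of position, but this set of genes and the lists were chosen with earlier results of these data known. The copies left out of totals, the copies found by BLAST, the shortest-transcript length and the unadjusted counts were added after seeing the data. The Pearson correlations with mt-Rnr1 and the edgeR dispersions were tested on simulated counts with known answers. The sign-flip test was tested on simulated ratios, and the other computations were not tested this way. Python 3.11.15, scipy 1.17.1 and R 4.3.3 were used. Values of some genes of the lists are not reported here.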

Additional observations from a re-analysis of the deposited data

Results flagged for a closer look

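Of 64 groups of 8 values checked for a single mouse far from the others (gap to the nearest mouse over the whole range above 0.526), 7 were marked, where chance alone marks about 1 in 20. All 7 were values of mouse 8. Its share of mitochondrial counts was the highest for mt-Co2 (gap over range 0.609) and for the tRNA gene mt-Tk (0.643, at 12 to 38 counts per library) and the lowest for mt-Nd4l (0.576) and mt-Nd4 (0.557). The count of Gm28439, the nuclear copy of the first 876 bases of mt-Nd4, as a percentage of the count of mt-Nd4 was lowest there (0.640), at 54.7% against 60.5% to 63.8% in the other mice. Its log2 ratio per kb was the highest for mt-Nd1 over mt-Nd2 (0.579), at 0.57 against a mean of 0.30, and the lowest for mt-Nd5 over mt-Cytb (0.588), at -1.76 against a mean of -1.21. These values share libraries and genes and are not independent.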

How the results depend on the processing

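The mean level of mt-Rnr1 moved by less than 1 SD under the alternatives run. The other scalings were set to keep the geometric mean of the deposited factors, so that mean could hardly move under them. The median biological coefficient of variation also stayed within 1 SD with DESeq2, without the minimum count or as a plain coefficient of variation. The scaling mattered more: the median coefficient of variation of the 15 mRNA and rRNA genes was 22.7% as deposited, 15.1% with library totals and 17.3% with counts off chromosome MT, against 15.6%, 18.2% and 17.1% for all genes. Of the 9 gene pairs 8 kept their sign, and 9 of 9 passed the exact test under each. Each pair had 1 sign in all mice, so leaving out a mouse could not change that outcome, which is no measure of stability. Adding the copies on chromosome 1 that had been listed moved the mitochondrial share from 15.6% to 22.7%, where a read counted under both names enters under each. Without length division mt-Co2 over mt-Co3 turned to -0.076, and most other ratios changed in size. mt-Rnr1 over mt-Rnr2 went to -1.63, mt-Atp8 over mt-Atp6 to -3.03 and mt-Nd4l over mt-Nd4 to -3.33. mt-Nd6 over mt-Nd5 went to -5.15, mt-Nd5 over mt-Cytb to -0.54, mt-Co1 over mt-Co2 to 1.71 and mt-Nd1 over mt-Nd2 to 0.19. mt-Rnr1 over mt-Nd1 stayed at -4.30. As shares of mitochondrial counts, the unadjusted count of relations to mt-Rnr1 fell from 12 to 1. On that scale r turned to -0.19 for mt-Nd2, -0.11 for mt-Co1, -0.11 for mt-Atp6, -0.40 for mt-Nd4l, -0.45 for mt-Nd4 and -0.30 for mt-Nd5. Shares of 1 total cannot all rise together, so negative values there are partly set by the measure. Under other settings the unadjusted count of relations to mt-Rnr1 was 11 to 14, and 0 passed adjustment throughout. The floor of the exact p with so few mice makes this 0 no measure of stability. Even mt-Tg, with an exact permutation p of 4.96e-05, had an adjusted p of 0.188 over all genes. Of the 15 relations to nuclear measures 0 passed after adjustment under any setting, and 4 of 195 values under other settings had an unadjusted exact p under 0.05. Of the 15 relations 8 changed sign under at least 1 setting and 7 under none. For the nuclear respiratory chain, r with mt-Rnr1 was -0.22 with library totals and -0.10 with counts off chromosome MT. With mt-Co1 it was -0.24 and -0.12, and with mt-Nd6 it kept its sign but fell to 0.034 and 0.14. For slow fibres, r with mt-Rnr1 was -0.39 and -0.28. By rank, library total gave -0.19 with mt-Rnr1 and -0.10 with mt-Nd6. Leaving out each mouse gave -0.61 to 0.44 for mt-Rnr1, -0.37 to 0.53 for mt-Co1 and -0.34 to 0.59 for mt-Nd6 with library total, the low ends without mouse 4. It gave -0.059 to 0.55 and -0.14 to 0.35 for mt-Rnr1 with the respiratory chain and slow fibres, and -0.56 to 0.12 and -0.31 to 0.12 for mt-Rnr1 and mt-Co1 with fibroblasts. The transcription and replication score kept its sign but moved widely. With mt-Rnr1 its r was -0.68 to -0.20 on leaving out each mouse and -0.22 with TMM. With mt-Co1 its r was -0.78 with library totals. The cause of these changes was not tested. Dropping the minimum count gave no other value for the pairs, since their genes all pass it. No paired analysis was possible between groups because only 1 group was analysed, and the gene pairs were compared within mice. Counting error limits the 11 tRNA genes under the minimum.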
